A study of Mus musculus with 15 samples.

Results

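The MHC class II presentation genes comprised 10 genes, H2-Aa, H2-Ab1, H2-Eb1, H2-DMa, H2-DMb1, H2-DMb2, H2-Oa, H2-Ob, Cd74 and Ciita, and all 10 were found by symbol in both expression tables of the series, among 15869 genes that the tables share. They were picked with earlier results of the same libraries in view, so their levels and genotype differences are given as a description, without a test. The study asked how one mutant Trp53 allele alters leukemia in Eμ-TCL1 mice, a model of chronic lymphocytic leukemia, and how the leukemic cells respond to ibrutinib, an inhibitor of Bruton's tyrosine kinase in the B-cell receptor pathway. RNA was sequenced from malignant splenic B-cells after 24 h in culture, in 15 libraries. The 4 groups were Eμ-TCL1 in DMSO (n = 3, replicates 2, 3 and 4), Eμ-TCL1;p53R172H/+ in DMSO (n = 5, replicates 1 to 5), Eμ-TCL1 in 5 μM ibrutinib (n = 3, replicates 1, 3 and 4) and Eμ-TCL1;p53R172H/+ in 5 μM ibrutinib (n = 4, replicates 1, 3, 4 and 5). All mice carried the TCL1 oncogene, which the Eμ enhancer drives in the B-cell lineage, on a largely C57BL/6 background, and the p53R172H/+ mice carried the mutant allele in the germ line beside a wild-type Trp53 allele. The cells were released from leukemic spleens by mechanical disruption and no sort is described, so other spleen cells may have entered the culture. The age of these mice is not given in the sources used here. Where nothing states that replicates came from separate mice, the spread between libraries may be partly technical.

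MHC class II molecules are pairs of an α and a β chain on B-cells, dendritic cells and macrophages, where they show peptides from internalized proteins to CD4+ T-cells. H2-Aa and H2-Ab1 encode the chains of I-A, and H2-Eb1 encodes the β chain of I-E, whose α chain is not made in C57BL/6 mice. Cd74, the invariant chain, fills the groove of new class II molecules until H2-DM exchanges its last fragment for peptide, H2-DO holds H2-DM back in B-cells, and Ciita is the coactivator on which transcription of these genes depends.

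RefSeq promoter windows (GRCm38.p6, 250 bases before to 50 after each start) were matched for 7 of the 10 genes, in 8 windows. The windows matter here because Ciita acts through a shared pair of elements, the X box and the Y box, to which the RFX and NF-Y complexes bind. The letters AACNNATGATG for part of the X box and ATTGG for the Y box, which is an inverted CCAAT, were searched on both strands. The X letters are the 11 bases most alike in the windows of H2-Eb1, H2-Ob, H2-DMb1 and H2-DMb2, with N where these differ, so finding them in those 4 is no independent result. They were present in 0.137% of all 32851 windows and the Y letters in 37.4%. X followed by Y letters with 10 to 30 bases between them was found in 4 windows of all genes, which is 0.0122%, and the 4 were those of H2-Eb1, H2-Ob, H2-DMb1 and H2-DMb2. The bases between the elements numbered 19 in H2-Eb1, 17 in H2-Ob, 20 in H2-DMb1 and 20 in H2-DMb2. H2-Aa and H2-Oa held the Y letters alone, at 48 and 43 bases before the start, and of the 2 windows of H2-DMa 1 held them, at 198 bases. As the X letters were drawn from the other 4 genes, their absence here does not show that an X box is missing. The stretches with both elements printed here lie on chromosome 17 at chr17:34305748-34305832 on the plus strand for H2-Eb1, chr17:34238788-34238872 on the plus strand for H2-Ob and chr17:34145099-34145183 on the plus strand for H2-DMb2. The stretch of H2-Aa, at chr17:34287847-34287931 on the minus strand, is shown as one with the Y letters and without the X letters. All 4 are outside annotated exons and read 5′ to 3′, with capitals at the X letters in the first 3 and at the Y letters in all 4.
H2-Eb1: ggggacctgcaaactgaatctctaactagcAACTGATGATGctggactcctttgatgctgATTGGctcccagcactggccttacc
H2-Ob: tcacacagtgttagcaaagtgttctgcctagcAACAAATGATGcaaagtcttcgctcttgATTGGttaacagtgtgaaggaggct
H2-DMb2: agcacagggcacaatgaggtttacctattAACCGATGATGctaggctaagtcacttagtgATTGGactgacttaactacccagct
H2-Aa: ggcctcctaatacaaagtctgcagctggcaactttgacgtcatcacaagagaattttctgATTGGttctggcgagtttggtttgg

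The 8 H2 genes lie in the class II region of chromosome 17, while Ciita lies on chromosome 16 (GRCm38, 10480059 to 10528418, plus strand) and Cd74 on chromosome 18. H2-Aa (34282744 to 34287823) is on the minus strand and the other 7 genes of the region are on the plus strand.

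Class II levels set the libraries apart more by library than by group. In DMSO, 5 of the 8 libraries were high for every classical chain and 3 were low. The low libraries were Eμ-TCL1;p53R172H/+ replicates 1 and 2 and Eμ-TCL1 replicate 2. In ibrutinib, Eμ-TCL1;p53R172H/+ replicate 1 was lowest for all 10 genes. The deposited values are CPM that the authors normalized with edgeR and rounded to 0.1, with 1 set of factors for the DMSO table and another for the ibrutinib table, so levels are compared within a table. Column sums, which follow from the scaling, ranged from 756625 to 1359650, and these values do not give the sequencing depth.

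These libraries also stood apart in markers of other cells. Eμ-TCL1;p53R172H/+ replicates 1 and 2 in DMSO and replicate 1 in ibrutinib are called here the libraries with few B-cell transcripts, and Eμ-TCL1 replicate 2 in DMSO and replicate 1 in ibrutinib the high-Lyz2 libraries. Summed values of 10 B-cell markers were 290.4 and 285.5 in Eμ-TCL1;p53R172H/+ replicates 1 and 2 in DMSO and 70.2 in replicate 1 in ibrutinib, against 3822 to 4771 and 609 to 1695 in the other libraries of those groups. Summed T-cell markers in the same 3 libraries were 2693, 3434 and 1786, against 205 to 239 and 565 to 1107 in the others. Eμ-TCL1 replicate 2 in DMSO and replicate 1 in ibrutinib had B-cell marker sums of 612 and 486, and macrophage and granulocyte marker sums of 29036 and 20469, with Lyz2 at 7931 and 5896. Their erythroid marker sums were 2889 and 2957. In every other library the macrophage and granulocyte sum was at most 1152 and the erythroid sum at most 46.5. Cd79a, a signaling chain of the B-cell receptor, was at 12.8, 13.2 and 37.9 in the 3 of these libraries in DMSO, against 259.6 to 380.1 in the other 5, and at 4.6 and 42.7 in the 2 in ibrutinib, against 81.1 to 421.5 in the other 5. The markers did not draw the same line in ibrutinib throughout. Eμ-TCL1;p53R172H/+ replicate 3 in ibrutinib, with a B-cell marker sum of 609, was below the high-Lyz2 library of that table in 4 of the 10 markers (Btk, Cd22, Ebf1 and Pax5), and Btk alone was below it in 3 more libraries. The label of malignant B-cells thus went with low B-cell markers in the 5 libraries and, less clearly, in that replicate. In bulk RNA, fewer B-cells and less class II RNA per B-cell cannot be told apart, and the part of these other cells in the results below was not tested.

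**Figure D1:**
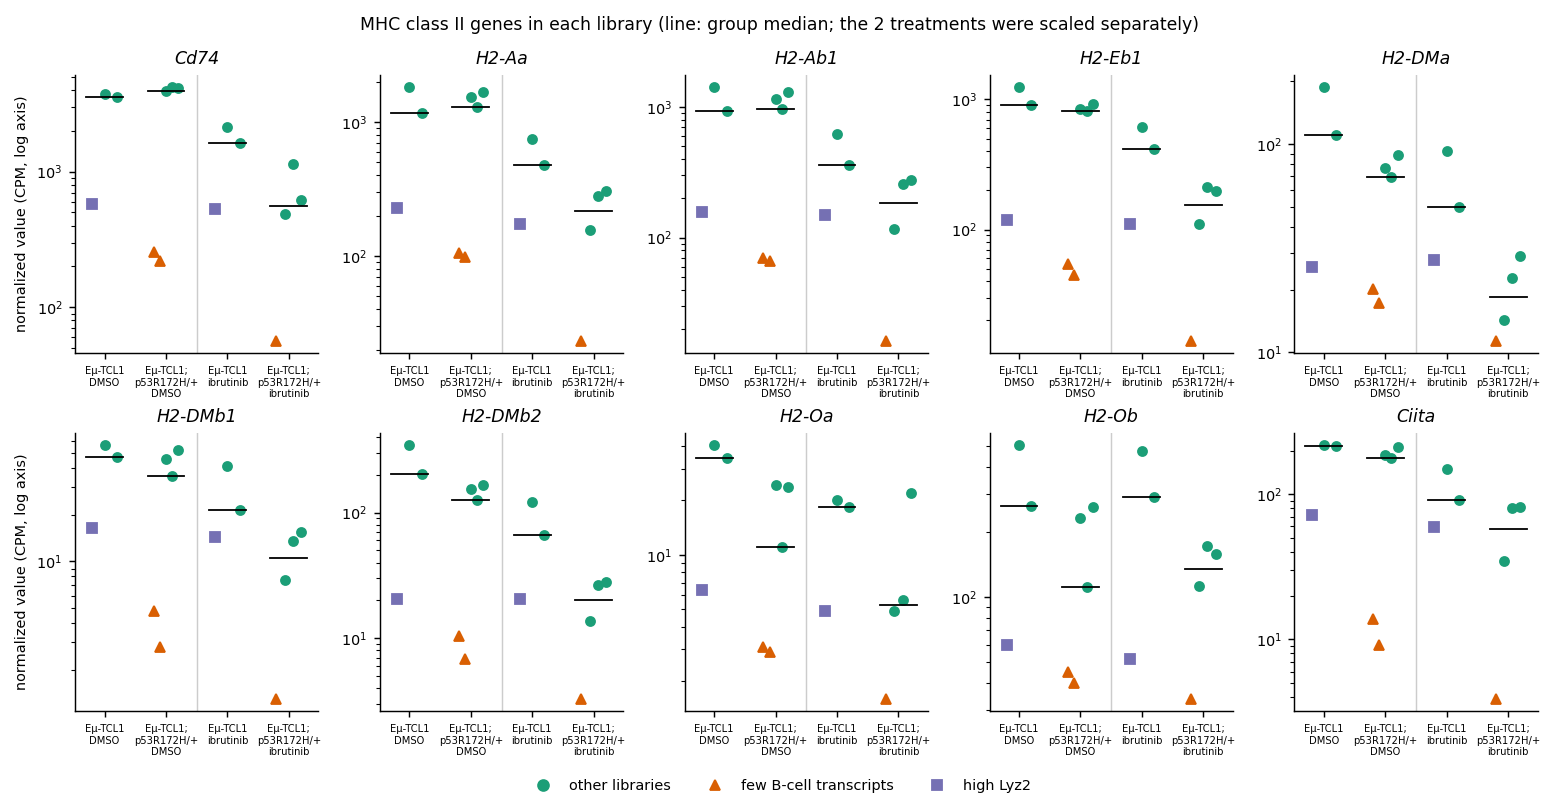
Normalized value (CPM, log axis) of each MHC class II gene in the 15 libraries, by genotype and treatment, with a line at the group median. Triangles are the 3 libraries with few B-cell transcripts and squares the 2 high-Lyz2 libraries, and for the classical chains in DMSO these lie below every other library.

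Cd74 was the highest member in each library. In DMSO, its values were 575, 3754 and 3567 in Eμ-TCL1 and 253.8, 219, 3900, 4179 and 4153 in Eμ-TCL1;p53R172H/+. In ibrutinib, they were 533, 2117 and 1627 in Eμ-TCL1 and 56.8, 490.1, 1127 and 617 in Eμ-TCL1;p53R172H/+. The genotypes overlapped in both tables, and the highest and lowest libraries differed by 19.1-fold in DMSO and 37.3-fold in ibrutinib.

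H2-Aa, the α chain of I-A, was at 228, 1820 and 1163 in Eμ-TCL1 and at 106, 98.3, 1535, 1306 and 1684 in Eμ-TCL1;p53R172H/+ in DMSO. In ibrutinib, H2-Aa was at 175, 751 and 474 in Eμ-TCL1 and at 23.3, 157, 279.7 and 305 in Eμ-TCL1;p53R172H/+. Its partner H2-Ab1 had the same order of libraries in DMSO, at 156, 1414 and 933 in Eμ-TCL1 and 70.3, 66.7, 1140.4, 959 and 1300.5 in Eμ-TCL1;p53R172H/+. In ibrutinib, H2-Ab1 was at 148, 621 and 359 in Eμ-TCL1 and 16.3, 116, 255 and 278 in Eμ-TCL1;p53R172H/+. The chains of I-A thus kept nearly the same ratio in every library. The log2 ratio of H2-Aa to H2-Ab1 was between 0.13 and 0.58 over the 15 libraries, whereas H2-Aa itself ranged over 18.5-fold in DMSO and 32.2-fold in ibrutinib.

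H2-Eb1, the β chain of I-E, was at 119, 1241 and 912 in Eμ-TCL1 and at 53.9, 45, 841, 815 and 930 in Eμ-TCL1;p53R172H/+ in DMSO. In ibrutinib, H2-Eb1 was at 110.2, 610.3 and 414 in Eμ-TCL1 and at 14, 111, 213 and 199 in Eμ-TCL1;p53R172H/+. With the low libraries aside, Eμ-TCL1 replicate 3 was highest and the 3 Eμ-TCL1;p53R172H/+ libraries of DMSO lay close to Eμ-TCL1 replicate 4.

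The H2-DM chains were lower and more spread. H2-DMa, the α chain, was at 25.7, 188 and 111 in Eμ-TCL1 and at 20.2, 17.3, 76.4, 69.5 and 88.7 in Eμ-TCL1;p53R172H/+ in DMSO, and at 27.8, 92.6 and 49.7 against 11.4, 14.3, 22.7 and 29.1 in ibrutinib. H2-DMb2, a β chain, was at 20.4, 342 and 204 in Eμ-TCL1 and at 10.4, 6.9, 155, 126 and 167 in Eμ-TCL1;p53R172H/+ in DMSO, and at 20.6, 122 and 66.6 against 3.3, 13.7, 26.6 and 28 in ibrutinib. H2-DMb1, the paralogous β chain, was at 16.4, 56.1 and 47.3 in Eμ-TCL1 and at 4.8, 2.8, 45.7, 35.5 and 52.2 in Eμ-TCL1;p53R172H/+ in DMSO, and at 14.4, 41.5 and 21.4 against 1.3, 7.6, 13.5 and 15.6 in ibrutinib. For H2-DMa and H2-DMb2 in both tables, Eμ-TCL1 replicates 3 and 4 were above every Eμ-TCL1;p53R172H/+ library, and only the high-Lyz2 library of Eμ-TCL1 lay among them. The paralogs share reads: of the 50-base stretches in H2-DMb1 transcripts, 22.7% also occur in those of H2-DMb2, so their separate levels are uncertain. Within a library, H2-DMb2 was above H2-DMb1 in all 15, by the least in the high-Lyz2 libraries, where the log2 ratio of H2-DMb1 to H2-DMb2 was -0.30 in DMSO and -0.49 in ibrutinib, against -2.59 and -2.09 in the other Eμ-TCL1 libraries of DMSO. H2-DMa also overlaps Brd2, on the opposite strand, over 10.4% of its exonic bases, and since a strand setting for the counting is not given in the sources used here, reads of the 2 genes may mix there. The log2 ratio of H2-DMa to H2-Aa was -2.33, -2.44 and -0.97 in the 3 libraries with few B-cell transcripts, above the -4.31 to -4.21 of the other Eμ-TCL1;p53R172H/+ libraries in DMSO and the -3.57 to -3.35 of those in ibrutinib.

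H2-Ob, the β chain of H2-DO, was at 60.2, 506 and 266 in Eμ-TCL1 and at 44.8, 39.9, 233, 112 and 261 in Eμ-TCL1;p53R172H/+ in DMSO. In ibrutinib, H2-Ob was at 51.6, 478 and 291 in Eμ-TCL1 and at 33.7, 113, 173 and 158 in Eμ-TCL1;p53R172H/+. H2-Oa, its α chain, was at 6.4, 40.3 and 34.5 in Eμ-TCL1 and at 3.1, 2.9, 24.2, 11 and 23.7 in Eμ-TCL1;p53R172H/+ in DMSO, and at 4.9, 20.1 and 18.5 against 1.6, 4.9, 5.6 and 21.9 in ibrutinib. H2-Oa shares 22.8% of its exonic bases with the antisense gene BC051537, and reads of the pair may mix likewise. Replicate 4 of Eμ-TCL1;p53R172H/+ in DMSO, where H2-Aa was at 1306 against 1535 and 1684 in replicates 3 and 5, had H2-Ob and H2-Oa below either by a wider margin. In ibrutinib, the H2-Oa of Eμ-TCL1;p53R172H/+ replicate 5 was above all Eμ-TCL1 libraries, which held for no other member in any library of that group.

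Ciita was at 71.6, 217 and 214 in Eμ-TCL1 and at 13.9, 9.2, 188, 179 and 211 in Eμ-TCL1;p53R172H/+ in DMSO. In ibrutinib, Ciita was at 59.1, 150.4 and 91.3 in Eμ-TCL1 and at 3.9, 34.9, 80.9 and 81.5 in Eμ-TCL1;p53R172H/+. The coactivator had the same 3 lowest DMSO libraries as the classical chains. Ciita shares 3.45% of its exonic bases with Dexi on the opposite strand. Ciita relative to Cd74 was highest in DMSO in the high-Lyz2 library of Eμ-TCL1, with a log2 ratio of -2.99 against -4.54 to -4.05 in the other 7 DMSO libraries.

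On a per-kilobase scale, with each value divided by the exonic length of its gene in GENCODE M21, Cd74 made up 49.3% to 65.7% of the 10 genes' summed level per kilobase (median 59.7% of 15 libraries). H2-Eb1 followed at 10.2% to 14.7% (median 11.3%), H2-Ab1 at 8.8% to 14.5% (median 10.6%) and H2-Aa at 7.16% to 11.4% (median 9.12%), and these 3 overlapped. H2-Ob spanned the widest range relative to its level, from 0.549% to 9.31% (median 3.13%). H2-DMb2 had a median of 2.28%, H2-DMa of 1.13%, H2-DMb1 of 0.802%, H2-Oa of 0.693% and Ciita of 0.608%, and each of these overlapped its neighbors in the order.

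The classical chains and Cd74 moved together across libraries, and the accessory genes less so. Likeness was measured as the root-mean-square (RMS) distance of each gene's log2 profile over the 15 libraries, centered within each table, from the mean profile of H2-Aa, H2-Ab1, H2-Eb1 and Cd74. Those 4 genes lay at 0.11 to 0.17, which their part in the mean profile partly fixes. Among 10119 genes with a mean of at least 5 in both tables, H2-DMb2 ranked 16th at 0.38, Ciita 24th at 0.40 and H2-DMb1 47th at 0.48. H2-Ob ranked 154th at 0.74, H2-Oa 185th at 0.79 and H2-DMa 220th at 0.85. The 5 genes outside the members with the most similar profiles were Tnfrsf13b at 0.14, a receptor for BAFF and APRIL, Pax5 at 0.22, the B-cell lineage transcription factor, Myo1e at 0.29, an unconventional myosin, Pkig at 0.29, an inhibitor of protein kinase A, and Swap70 at 0.30, a signaling adaptor of B-cells. The B-cell markers Cd79a and Ms4a1 were at 0.39 and 0.52. These distances describe libraries that share 2 tables and differ in their cells, and they carry no test.

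Class II was low in the libraries in which the B-cell markers were low. Over the DMSO libraries, the mean log2 value of the 10 B-cell markers was 4.37 and 4.41 in the libraries with few B-cell transcripts, 5.76 in the high-Lyz2 library and 8.19 to 8.72 in the other 5. The median log2 value of the 10 class II genes was 4.96, 4.77 and 6.06 in the same 3 libraries and 7.24 to 8.70 in the other 5. Within the DMSO libraries of each kind the order was not the same: Eμ-TCL1;p53R172H/+ replicate 4 had the lowest class II median of the 5, 7.24, with a B-cell marker mean of 8.29, above the 8.19 and 8.24 of replicates 3 and 5, and replicates 1 and 2 were also in opposite order. In ibrutinib, the B-cell marker mean was 2.64 in Eμ-TCL1;p53R172H/+ replicate 1 and the class II median 3.77. Among the other ibrutinib libraries, the order of the class II median was that of the B-cell marker mean, from 5.81 and 5.49 in the high-Lyz2 library to 8.07 and 8.20 in Eμ-TCL1 replicate 3.

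**Figure D2:**
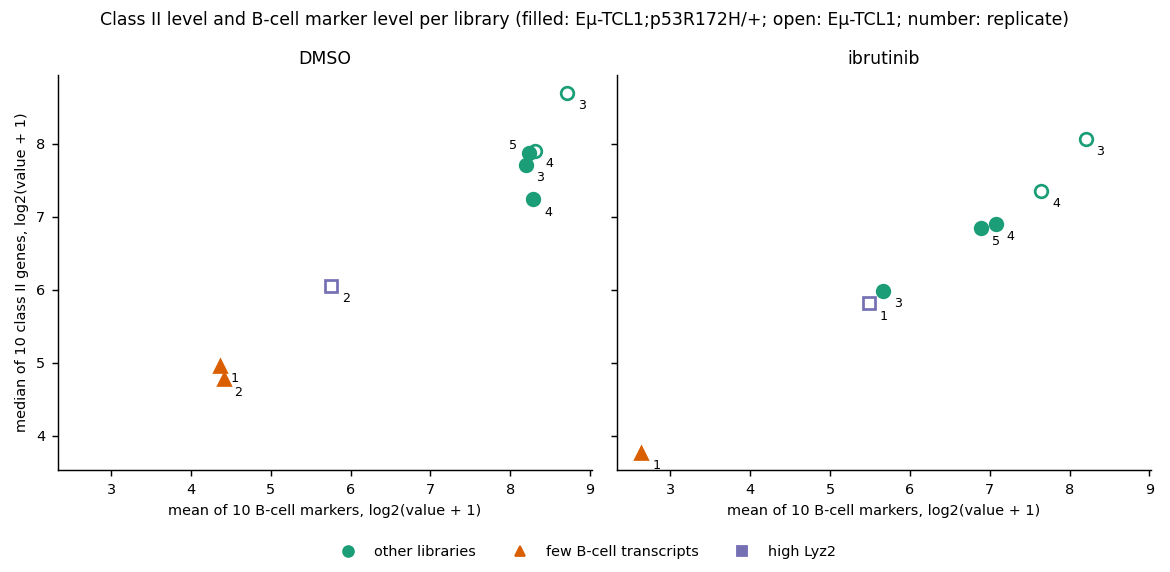
Median log2(value + 1) of the 10 class II genes against the mean log2(value + 1) of 10 B-cell markers, 1 point per library, for DMSO (left) and ibrutinib (right). Low class II libraries are the ones with low B-cell markers, from 3.77 and 2.64 in Eμ-TCL1;p53R172H/+ replicate 1 in ibrutinib to 8.70 and 8.72 in Eμ-TCL1 replicate 3 in DMSO.

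Between genotypes in DMSO, all 10 class II genes had lower mean log2 values in Eμ-TCL1;p53R172H/+, as did 46.7% of all genes. None of the 10 was separated from the spread between libraries. Differences are Eμ-TCL1;p53R172H/+ minus Eμ-TCL1 on the log2(value + 1) scale, with standard errors from limma. They ranged from -0.60 ± 1.29 (SE) for Cd74 and -0.61 ± 1.22 for H2-Aa to -1.21 ± 1.34 for H2-DMb2 and -1.23 ± 1.15 for Ciita. The median of the 10 was -0.92, against 0.04 over all genes. All 10 confidence intervals (95%) included 0, and 0 of 10 genes had libraries that did not overlap between the genotypes, against 2.93% of all genes lower and 3.52% higher in Eμ-TCL1;p53R172H/+ without overlap. No member passed an adjusted p of 0.05 in the fit over all 16470 genes, where 0.0121% passed, and since the members were chosen on these data nothing is read from that count.

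The direction in DMSO depended on a few libraries. Without the 2 Eμ-TCL1;p53R172H/+ libraries with few B-cell transcripts, the median difference was 0.37 and 3 of 10 genes were lower. When the high-Lyz2 library of Eμ-TCL1 was also left out, 8 of 10 were lower, with a median of -0.27. In those 5 libraries (3 against 2), H2-DMa, H2-DMb2, H2-Oa, H2-Ob and Ciita were lower in Eμ-TCL1;p53R172H/+ without overlap and Cd74 was higher without overlap, against 16.2% and 16.5% of all genes in the 2 directions. H2-DMa differed by -0.88 ± 0.27, H2-DMb2 by -0.83 ± 0.28 and H2-Ob by -0.95 ± 0.50, whereas H2-Aa differed by 0.04 ± 0.36 and Cd74 by 0.16 ± 0.56. Relative to the B-cell marker mean of the same library, the median difference over all 8 libraries was -0.02, with 5 of 10 genes lower. The libraries of a genotype were unlike in this. The median log2 ratio of the members to that mean was 0.60 and 0.37 in Eμ-TCL1;p53R172H/+ replicates 1 and 2. It was -0.48, -1.05 and -0.36 in replicates 3, 4 and 5, and 0.30, -0.01 and -0.40 in Eμ-TCL1 replicates 2, 3 and 4.

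In ibrutinib, all 10 genes again had lower mean values in Eμ-TCL1;p53R172H/+, by a median of -1.56 against -0.05 over all genes. Of all genes, 54.4% had lower mean values. The differences ranged from -0.93 ± 0.86 (SE) for H2-Ob and -0.95 ± 0.78 for H2-Oa to -1.73 ± 1.02 for H2-Eb1 and -1.91 ± 0.82 for H2-DMb2. The confidence interval of H2-DMa, from -2.51 to -0.34, was the only one of the 10 below 0, and it takes no account of the choice among genes. The libraries of the genotypes overlapped for all 10 genes, where 5.97% of all genes were lower and 6.68% higher without overlap, and 0 of 10 passed in the fit over 16428 genes, where 0% passed. Without Eμ-TCL1;p53R172H/+ replicate 1 the median was -0.77, and without both that library and the high-Lyz2 library of Eμ-TCL1 it was -1.34, with 10 of 10 genes lower in both cases.

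The remaining 5 ibrutinib libraries did not overlap for 9 of the 10 genes, all lower in Eμ-TCL1;p53R172H/+, against 18.7% of all genes (15.2% were higher without overlap), and H2-Oa was the exception. There H2-DMb2 differed by -2.0 ± 0.41 (SE), H2-DMa by -1.63 ± 0.40, H2-Eb1 by -1.58 ± 0.36, Cd74 by -1.41 ± 0.45 and Ciita by -0.92 ± 0.46. B-cell markers moved the same way in these libraries: their sum was 609, 1695 and 1456 in Eμ-TCL1;p53R172H/+ replicates 3, 4 and 5 and 3804 and 2884 in Eμ-TCL1 replicates 3 and 4. T-cell marker sums were 1107, 565 and 703 against 124 and 429. Relative to the B-cell marker mean, the median difference over all 7 libraries was -0.01, with 6 of 10 genes lower. The median log2 ratio of the members to that mean was 1.13, 0.32, -0.17 and -0.05 in Eμ-TCL1;p53R172H/+ replicates 1, 3, 4 and 5. In Eμ-TCL1 replicates 1, 3 and 4 it was 0.32, -0.13 and -0.29.

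**Figure D3:**
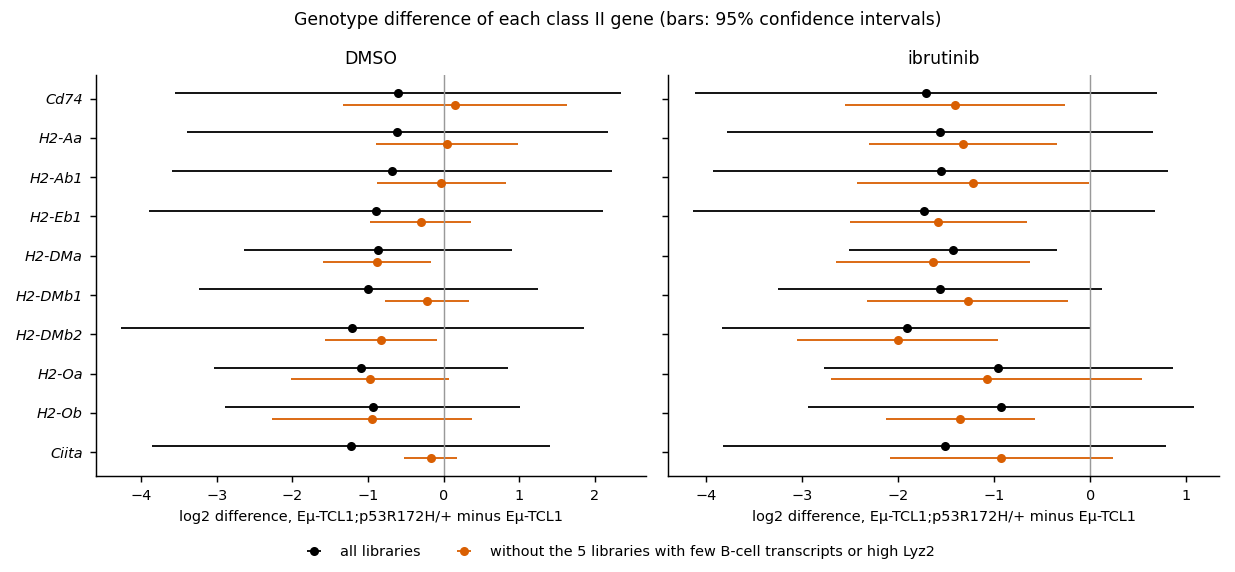
Log2 difference of each class II gene, Eμ-TCL1;p53R172H/+ minus Eμ-TCL1, with 95% confidence intervals, in DMSO (left) and ibrutinib (right), over all libraries (black) and without the libraries with few B-cell transcripts or high Lyz2 (orange). In DMSO the orange points lie on both sides of 0, from -0.97 for H2-Oa to 0.16 for Cd74, and in ibrutinib all 10 lie below 0, from -2.0 for H2-DMb2 to -0.92 for Ciita.

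The genotype difference was not shown to differ between treatments. The difference of differences (ibrutinib minus DMSO) cancels the scale of each table. It had a median of -0.63 over the 10 genes, against -0.07 over all genes. It was below 0 for 8 of 10 members and for 59.1% of all genes. It was -1.11 ± 1.79 (SE) for Cd74, -0.95 ± 1.69 for H2-Aa, -0.29 ± 1.66 for Ciita, 0.01 ± 1.31 for H2-Ob and 0.14 ± 1.24 for H2-Oa, and all 10 intervals included 0. These errors come from a fit that did not pair libraries. Deviations of same-numbered libraries from their group means correlated across treatments at 0.75 to 0.84, but for Eμ-TCL1;p53R172H/+ replicate 3 at -0.11. Each group held a library with few B-cell transcripts or high Lyz2, which moves all deviations from its mean. Differently numbered libraries were not compared, so these correlations do not show what a number shares. In the fit over 15869 genes, 0% passed. The median was 0.23 without Eμ-TCL1 replicate 2 in DMSO and 0.03 without Eμ-TCL1;p53R172H/+ replicate 1 in ibrutinib, so single libraries turned its direction.

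Ratios within a library depend on the table's scale only through the pseudocount and could be set side by side between treatments within a genotype, as a description. H2-Ob relative to H2-Aa was higher in ibrutinib in both genotypes without overlap. In Eμ-TCL1, the log2 ratio was -1.90, -1.85 and -2.13 in DMSO and -1.74, -0.65 and -0.70 in ibrutinib. In Eμ-TCL1;p53R172H/+, it was -1.22, -1.28, -2.71, -3.53 and -2.68 in DMSO and 0.51, -0.47, -0.69 and -0.94 in ibrutinib. Such separation was found for 1.47% of all genes among the Eμ-TCL1 libraries and for 1.75% among those of Eμ-TCL1;p53R172H/+. The mean ratio of H2-Ob was higher by 0.93 in the Eμ-TCL1 libraries and by 1.89 in those of Eμ-TCL1;p53R172H/+, where the median over all genes was 0.77 and 1.65, so most genes gained on H2-Aa. Among the other members it ranged from -0.04 for H2-DMb2 to 0.41 for H2-DMb1 in Eμ-TCL1 and from 0.13 for Cd74 to 1.35 for H2-Oa in Eμ-TCL1;p53R172H/+. Relative to Cd74 or to the B-cell marker mean, H2-Ob overlapped between treatments in both genotypes. Its log2 ratio to Cd74 was -3.742 to -2.89 in DMSO and -3.343 to -2.145 in ibrutinib in Eμ-TCL1. In Eμ-TCL1;p53R172H/+ it was -5.212 to -2.429 and -2.695 to -0.7361.

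Ciita relative to H2-Aa and relative to Cd74 was also higher in ibrutinib without overlap, in Eμ-TCL1;p53R172H/+ and not in Eμ-TCL1, against 1.75% and 1.01% of all genes in Eμ-TCL1;p53R172H/+ and 1.47% and 0.447% in Eμ-TCL1. The log2 ratio of Ciita to Cd74 was -4.54 to -4.10 in DMSO and -3.78 to -2.91 in ibrutinib in Eμ-TCL1;p53R172H/+, and -4.11 to -2.99 and -4.14 to -3.15 in Eμ-TCL1. Whether the genotypes differ in this was not tested. Relative to the B-cell marker mean, H2-Aa, H2-Ab1 and Cd74 were lower in ibrutinib without overlap in Eμ-TCL1;p53R172H/+, against 0.12% of all genes, but with a pseudocount of 0.1 in place of 1 all 3 overlapped. The T-cell marker sums of Eμ-TCL1;p53R172H/+ replicates 3, 4 and 5 were 205 to 239 on the scale of the DMSO table and 565 to 1107 on that of the ibrutinib table, which are set apart by their factors, and their part in these ratios was not tested.

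**Figure D4:**
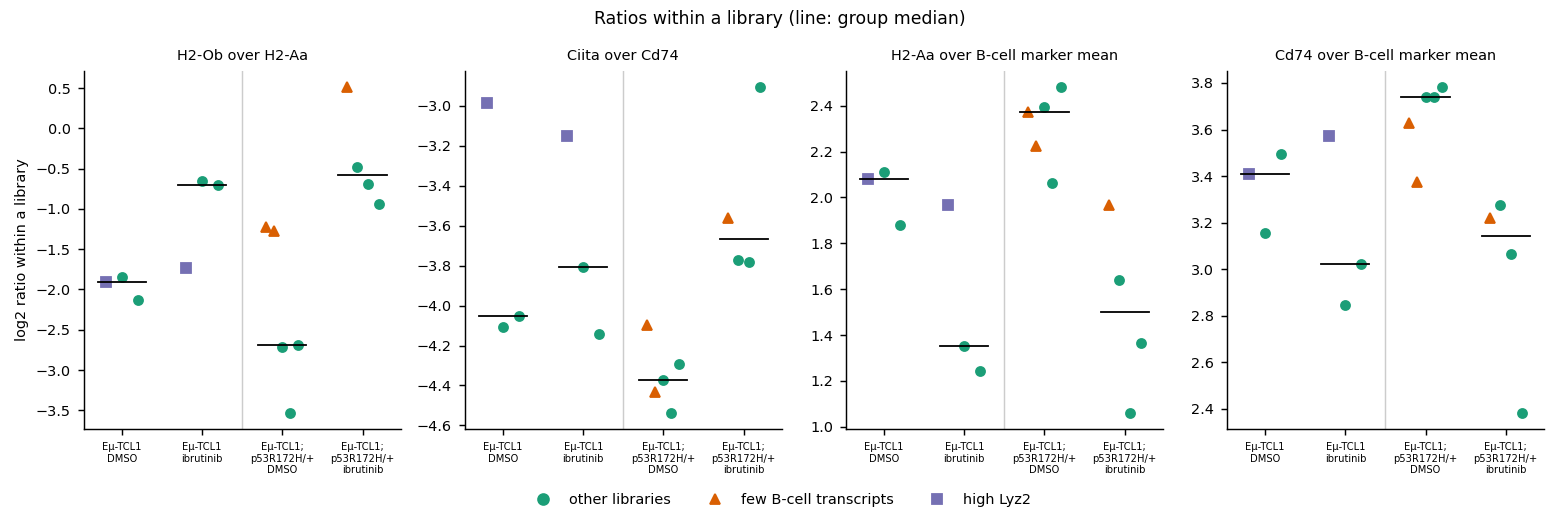
Log2 ratios within each library on the log2(value + 1) scale, with a line at the group median, for H2-Ob over H2-Aa, Ciita over Cd74, and H2-Aa and Cd74 over the mean of 10 B-cell markers. H2-Ob over H2-Aa lies higher in ibrutinib than in DMSO in both genotypes, with -1.74 as the lowest ibrutinib value of Eμ-TCL1 and -1.85 as its highest DMSO value.

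The other genes of antigen presentation were 46 genes in 7 lists, also assembled with earlier results known, and they were tested between genotypes with limma over all genes. None passed in DMSO, in ibrutinib or for the difference of differences, and the lowest adjusted p among them was 0.558, 0.165 and 1. At an unadjusted p under 0.05 there were 3 in DMSO and 6 in ibrutinib, all lower in Eμ-TCL1;p53R172H/+, and 0 for the difference of differences, beside 8.17%, 12% and 0.523% of all genes. In DMSO, 30 of the 46 had lower mean values in Eμ-TCL1;p53R172H/+ and 36 in ibrutinib, where 46.7% and 54.4% of all genes did. All libraries of a genotype lay below the other for 1 of the 46 in DMSO and 8 in ibrutinib, against 2.93% and 5.97% of all genes. These counts rose when the libraries with few B-cell transcripts and the high-Lyz2 library of the table were left out. Then 16 of the 46 in DMSO and 18 in ibrutinib had an unadjusted p under 0.05, of which 13 and 17 were lower in Eμ-TCL1;p53R172H/+, beside 17.1% and 17.7% of all genes, and none passed after adjustment. In those libraries 16 genes in DMSO and 22 in ibrutinib were lower without overlap, against 16.2% and 18.7% of all genes, and 5 and 2 were higher, against 16.5% and 15.2%.

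The factors that occupy the class II promoters varied less between libraries than the members. Summed values of the 7 promoter factors were 336 to 466 in the DMSO libraries and 267 to 367 in the ibrutinib libraries, where the summed class II values were 508 to 9578 and 166 to 5004. Rfx5, the subunit of the RFX complex that binds the X box, was at 22.6, 58.4 and 51.4 in Eμ-TCL1 and at 40.4, 49.7, 78.4, 59.8 and 85.6 in Eμ-TCL1;p53R172H/+ in DMSO, a log2 difference of 0.55 ± 0.37 (SE, limma adjusted p = 0.647). Nfyb, a subunit of the Y-box factor NF-Y, differed by 0.31 ± 0.22 (limma adjusted p = 0.654). Of the factors that act on Ciita, Spi1, the myeloid and B-cell factor PU.1, was at 135 and 152 in the high-Lyz2 libraries and at 0.8 to 3 in those with few B-cell transcripts, and between 12.6 and 42.2 elsewhere. Its genotype difference was -2.20 ± 0.95 in DMSO (limma adjusted p = 0.608) and -2.37 ± 0.99 in ibrutinib (limma adjusted p = 0.405). Irf8 differed by -1.74 ± 0.74 in ibrutinib (limma adjusted p = 0.415). Irf4 and Prdm1, the repressor of Ciita in plasma cells, had unadjusted limma p above 0.05 in both tables. Both were highest in DMSO in Eμ-TCL1;p53R172H/+ replicate 4, at 1148 and 143, against at most 450 and 107.5 in the other DMSO libraries.

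In the endosome, Ctss, the cathepsin that trims the invariant chain, had the lowest p of the 46 genes in ibrutinib. It was at 233, 233 and 224 in Eμ-TCL1 and at 78.1, 101, 114 and 115 in Eμ-TCL1;p53R172H/+ in ibrutinib, without overlap, and its difference of -1.18 ± 0.18 (SE) had a limma adjusted p of 0.165. Ifi30, the lysosomal thiol reductase GILT, was at 87.3, 54.1 and 44.5 against 10.4, 18.3, 27 and 22.1 in ibrutinib, a difference of -1.64 ± 0.36 (limma adjusted p = 0.222). In DMSO, Ifi30 differed by -1.54 ± 0.57 (limma adjusted p = 0.558) and Ctss by -0.68 ± 0.38 (limma adjusted p = 0.645). Sppl2a, which clears the last Cd74 fragment from the membrane, differed by -0.56 ± 0.19 in ibrutinib (limma adjusted p = 0.346), and Cst3, an inhibitor of cathepsins, by -0.66 ± 0.53 (limma adjusted p = 0.606). March1, the ligase that sends class II molecules for degradation, was at 127, 184 and 123 in Eμ-TCL1 and at 7.5, 8.9, 105, 80 and 63.7 in Eμ-TCL1;p53R172H/+ in DMSO, without overlap, with a difference of -2.07 ± 0.90 (limma adjusted p = 0.609).

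Class I presentation, which nearly all cells carry out, had another pattern over the libraries. H2-K1, a class I heavy chain, was at 411, 2117 and 1236 in Eμ-TCL1 and at 2070.4, 1799, 832, 649.7 and 966 in Eμ-TCL1;p53R172H/+ in DMSO, with the libraries of few B-cell transcripts above the rest of their group. B2m, the light chain, Tap1, the peptide transporter, and Nlrc5, the class I coactivator related to Ciita, were also highest within that group in those 2 libraries. Of the 15 class I genes, 10 had higher mean values in Eμ-TCL1;p53R172H/+ in DMSO and 6 in ibrutinib, and none passed. Among all genes, 46.7% in DMSO and 54.4% in ibrutinib had lower mean values. The direction in DMSO turned with the libraries: without those of few B-cell transcripts 11 of the 15 were lower. Without the high-Lyz2 library as well all 15 were lower, 9 of them without overlap, against 16.2% of all genes. In ibrutinib 14 of the 15 were lower without both kinds of library, 9 of them without overlap, against 18.7% of all genes. Nlrc5 in ibrutinib differed by 0.62 ± 0.59 over all libraries (limma adjusted p = 0.650) and by -0.28 without those libraries. H2-Eb2, a class II β chain gene of the same region outside the members, was at 10, 29 and 27.8 against 3.6, 2.6, 14.5, 16.1 and 12.2 in DMSO, a difference of -1.24 ± 0.64 (limma adjusted p = 0.638). All 4 co-stimulation genes had lower mean values in Eμ-TCL1;p53R172H/+ in both tables. In DMSO only 2 did without the libraries of few B-cell transcripts, and all 4 did without the high-Lyz2 library as well. In ibrutinib all 4 did in both cases. Over all libraries Cd86, a ligand of CD28, differed by -1.05 ± 1.20 in DMSO (limma adjusted p = 0.766) and -1.23 ± 1.05 in ibrutinib (limma adjusted p = 0.620).

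**Figure D5:**
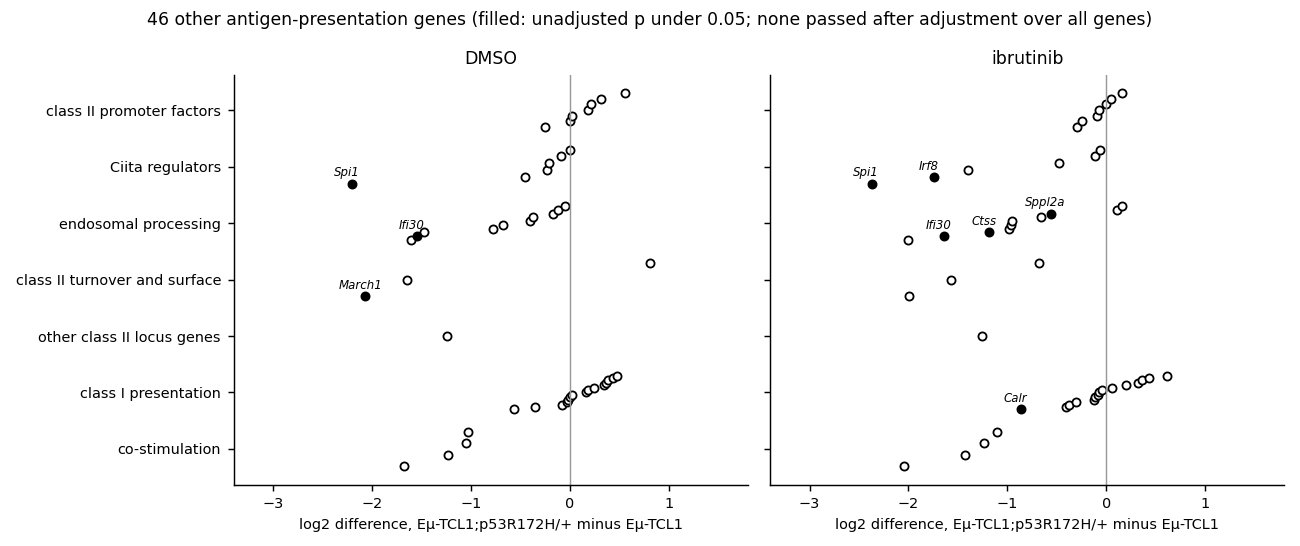
Log2 difference, Eμ-TCL1;p53R172H/+ minus Eμ-TCL1, of 46 other antigen-presentation genes in 7 lists, in DMSO (left) and ibrutinib (right). Filled points, with names, have an unadjusted limma p under 0.05 (3 in DMSO and 6 in ibrutinib, all below 0), and none passed after adjustment over all genes.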

How the data were processed

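Signal values were deposited by the authors in 2 tables, 1 per treatment, as edgeR-normalized CPM rounded to 0.1. Per the labels and methods, the authors aligned reads with TopHat2 2.0.12, used SAMtools 0.1.19, ran HTSeq-count with the GENCODE M2 annotation (GRCm38), removed genes under 0.5 CPM and scaled each table by itself. Read counts could not be recovered from these rounded, normalized values, so depth is unknown here and edgeR was not rerun. The raw sequence data that the paper reports as available were not used. The members and lists were chosen with earlier results of these data known. All genes of a table were fitted with limma 3.58.1 in R 4.3.3 (eBayes with a trend) on log2(value + 1), and genes passed at a Benjamini-Hochberg adjusted p under 0.05. The difference of differences was fitted over 15869 genes. Ibrutinib was not tested against DMSO. In simulated data with 200 genes changed by 3 on the log2 scale, 86% were called in DMSO, 81.5% in ibrutinib and 69.5% for the difference of differences. Of the genes called, 7.53%, 4.12% and 5.44% were unchanged. The changed genes were drawn at random and each gene was simulated by itself. These shares do not say how often a change in the members would be called, as their SEs reached 1.34 in DMSO (H2-DMb2). Named were the 10 members, 16 presentation genes chosen for their roles (H2-Ea-ps is not analysed here), the 2 lowest p per direction in each test, defining markers of B-cells, T-cells and myeloid cells, and the 5 most similar genes, with 1 marker not reported here. Coordinates and exonic lengths are from GENCODE M21 (GRCm38). Results were recomputed with sample quality weights, quantile normalization, a mean of at least 5, pseudocounts of 0.1 and 5, a replicate block, values relative to B-cell markers, each library left out in turn, and without the few-B-cell-transcript and high-Lyz2 libraries. Leaving out the high-Lyz2 library of ibrutinib and the ratios with a pseudocount of 0.1 were chosen after seeing the data. Python 3.11.15 and matplotlib 3.10.9 drew the figures.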

Additional observations from a re-analysis of the deposited data

How the results depend on the processing

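No member passed the threshold in the main fits or in those without the few-B-cell-transcript and high-Lyz2 libraries. Among presentation genes, 1 passed in the fits that counted them. It was Ifi30 in DMSO with sample quality weights (log2 difference -1.51, limma adjusted p = 0.046). The fit relative to the B-cell marker mean did not count presentation genes. Relative to the B-cell marker mean, the median genotype difference of the members in ibrutinib was -0.0089 in place of -1.56. Leaving out 1 library at a time, the median ranged from -1.72 to -0.28 in DMSO (Eμ-TCL1 replicates 2 and 3 left out), from -2.0 to -0.77 in ibrutinib (replicate 1 of Eμ-TCL1 and of Eμ-TCL1;p53R172H/+ left out) and from -1.31 to 0.23 for the difference of differences (Eμ-TCL1 replicates 3 and 2 in DMSO left out). Of the presentation genes named by their p, Nlrc5 in ibrutinib was at -0.28 without the few-B-cell-transcript and high-Lyz2 libraries, and the difference of differences of Ctsl, 0.57 over all libraries, was -0.80 without Eμ-TCL1 replicate 2 in DMSO and -0.064 without that library and those with few B-cell transcripts; the cause was not tested. With the replicate block, the medians were -0.90, -1.95 and -0.84 and 0 presentation genes passed. Within a table the block was a fixed term per number, which pairs libraries of different genotypes. Only numbers present in both genotypes inform those medians, 2, 3 and 4 in DMSO and 1, 3 and 4 in ibrutinib. For the difference of differences it was a correlation between same-numbered libraries of a genotype. The labels do not say what a number shares. Deviations of same-numbered libraries of the 2 genotypes correlated at 0.05 to 0.28 in DMSO and -0.20 to -0.05 in ibrutinib. Across treatments they correlated at 0.75 to 0.84, but for Eμ-TCL1;p53R172H/+ replicate 3 at -0.11. Differently numbered libraries were not compared, so these values do not show what a number shares either. Unknown depth, separate scaling and 3 to 5 libraries a group limit all comparisons, and members under about 5 CPM rest on the pseudocount.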
